A study of Mus musculus with 6 samples.

Results

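Rybp occupancy was examined at the 6 Gata transcription factor genes, Gata1 to Gata6, in mouse embryonic stem (ES) cells. Members were chosen by name, as the genes whose symbol or accession is annotated to probes in the scanner files of the Dnmt1-KO arrays. They took up 278 of the 474380 probes, and each of the 6 had a scored promoter among 16062 promoters in all. Chromatin was precipitated with an antibody against Rybp and set against input DNA on promoter microarrays (ChIP-chip). The 3 genotypes were Eed knockout (Eed-KO), Dnmt1 knockout (Dnmt1-KO) and wild type (WT). The promoter set was split over 2 array designs holding different probes, so every probe was read on 1 array per genotype and there were no replicates among the 6 arrays. For that reason no p-values are given, and precision is limited by the number of arrays. All 3 genotypes were formaldehyde-fixed ES cells grown in serum with leukaemia inhibitory factor, on irradiated fibroblast feeders or on gelatin. The labels do not say which culture had feeders, how each knockout was made or how many clones it stands for. Input and precipitated DNA show no transcripts, so the labelled cell type could not be checked against marker genes.

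GATA factors are zinc finger proteins that bind the sequence they are named for. Gata1, Gata2 and Gata3 direct blood cell development, with Gata1 acting in red cells and megakaryocytes, Gata2 in blood stem and progenitor cells and Gata3 in T cells. Gata4, Gata5 and Gata6 act in heart and endoderm, and Gata4 and Gata6 drive ES cells towards extraembryonic endoderm. Rybp belongs to the variant forms of Polycomb repressive complex 1, which place ubiquitin on histone H2A, mainly at CpG islands. Polycomb repressive complex 2, the methylase of histone H3 lysine 27, needs Eed for its activity, and Dnmt1 copies DNA methylation to the new strand after replication.

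The promoters of the family differ in their content of CpG, a C followed by a G on the same strand, which marks CpG islands. The stretches below are printed to show this contrast between Gata1 and its relatives. Each is the 250 bases before a start annotated by RefSeq (build GRCm38.p6), read 5′ to 3′ on the strand of the gene with CpG pairs in capitals. The Gata1 stretch is chrX:7967911-7968160 (minus strand), the distal Gata2 stretch chr6:88193641-88193890 (plus), the Gata3 stretch chr2:9878601-9878850 (minus) and the Gata5 stretch chr2:180334680-180334929 (minus).
Gata1: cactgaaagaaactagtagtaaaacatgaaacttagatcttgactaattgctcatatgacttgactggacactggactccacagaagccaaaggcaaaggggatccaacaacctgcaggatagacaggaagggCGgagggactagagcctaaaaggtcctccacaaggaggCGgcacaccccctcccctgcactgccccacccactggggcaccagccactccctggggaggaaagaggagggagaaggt
Gata2, distal start: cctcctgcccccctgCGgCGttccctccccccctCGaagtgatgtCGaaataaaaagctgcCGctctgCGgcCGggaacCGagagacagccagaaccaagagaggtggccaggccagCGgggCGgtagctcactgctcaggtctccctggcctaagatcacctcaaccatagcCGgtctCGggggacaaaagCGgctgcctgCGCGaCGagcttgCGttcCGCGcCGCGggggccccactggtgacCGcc
Gata3: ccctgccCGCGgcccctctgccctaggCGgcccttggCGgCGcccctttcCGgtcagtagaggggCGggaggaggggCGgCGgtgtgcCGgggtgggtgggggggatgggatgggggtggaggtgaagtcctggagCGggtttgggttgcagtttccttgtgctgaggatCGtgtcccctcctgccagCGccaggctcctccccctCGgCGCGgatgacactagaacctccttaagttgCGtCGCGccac
Gata5: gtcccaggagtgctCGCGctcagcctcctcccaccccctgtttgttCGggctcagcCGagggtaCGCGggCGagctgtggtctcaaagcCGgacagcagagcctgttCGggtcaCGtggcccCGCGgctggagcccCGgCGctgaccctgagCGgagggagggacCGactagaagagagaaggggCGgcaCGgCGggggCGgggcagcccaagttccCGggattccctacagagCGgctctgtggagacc
Gata1 held 2 CpG pairs in these 250 bases, and 81.2% of the 32851 RefSeq promoters held at least as many. The distal Gata2 start had 22, Gata3 had 19 and Gata5 had 22, against a median of 6 over all promoters. RefSeq lists a second, proximal Gata2 start 4773 bp downstream of the distal one, with 24 CpG pairs in its stretch. The hexamer CACGTG, the E-box of Myc-type factors, occurred in the Gata5 stretch alone among the 5 stretches and in 6.02% of all promoters. The heptamer TTCCCGC, part of the E2F consensus, and the pentamer GATAA were in none of the 5, against 3.82% and 22.6% of all promoters (both strands were searched). Gata4 and Gata6 are described without sequence.

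A pair of array probes is printed as well, because they carried the highest Dnmt1-KO levels upstream of the scanner-file starts of Gata2 and Gata3. At Gata2 that start is the proximal one, so the Gata2 probe lies downstream of the distal start. The Gata2 probe lies on chromosome 6 from 88160090 to 88160137, and the Gata3 probe on chromosome 2 from 9800865 to 9800921. These positions are from the scanner files, for which no source used here names a genome build, and are not comparable with the RefSeq positions above. CpG pairs are again in capitals.
Gata2 probe, 4195 bp upstream: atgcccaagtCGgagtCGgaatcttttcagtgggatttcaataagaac
Gata3 probe, 5264 bp upstream: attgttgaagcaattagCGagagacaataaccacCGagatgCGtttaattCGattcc
The level at a probe is log2 of IP (precipitated DNA) over input, centred on the median of its array. The Gata2 probe had a level of 2.00 in Eed-KO, 3.35 in Dnmt1-KO and 1.71 in WT. The Gata3 probe had 2.10 in Eed-KO, 4.76 in Dnmt1-KO and 1.34 in WT. Both were above 1, that is 2-fold IP over input, in all 3 genotypes.

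The Dnmt1-KO arrays stand apart from the others and carry this into every Dnmt1-KO value that follows. Their log ratios had standard deviations (SD) of 0.96 on design 1 and 0.91 on design 2. The Eed-KO arrays had 0.45 and 0.47, and the WT arrays 0.41 and 0.42. They were read on scanner model G2505C, with a later version of the extraction software than the Eed-KO and WT arrays, which were read on model G2505B. In Dnmt1-KO values, the genotype and the scan therefore cannot be told apart. None of the Gata probes was saturated or carried an outlier mark. Gata2, Gata3 and Gata5 are on the first array design and Gata1, Gata4 and Gata6 on the second.

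**Figure D1:**
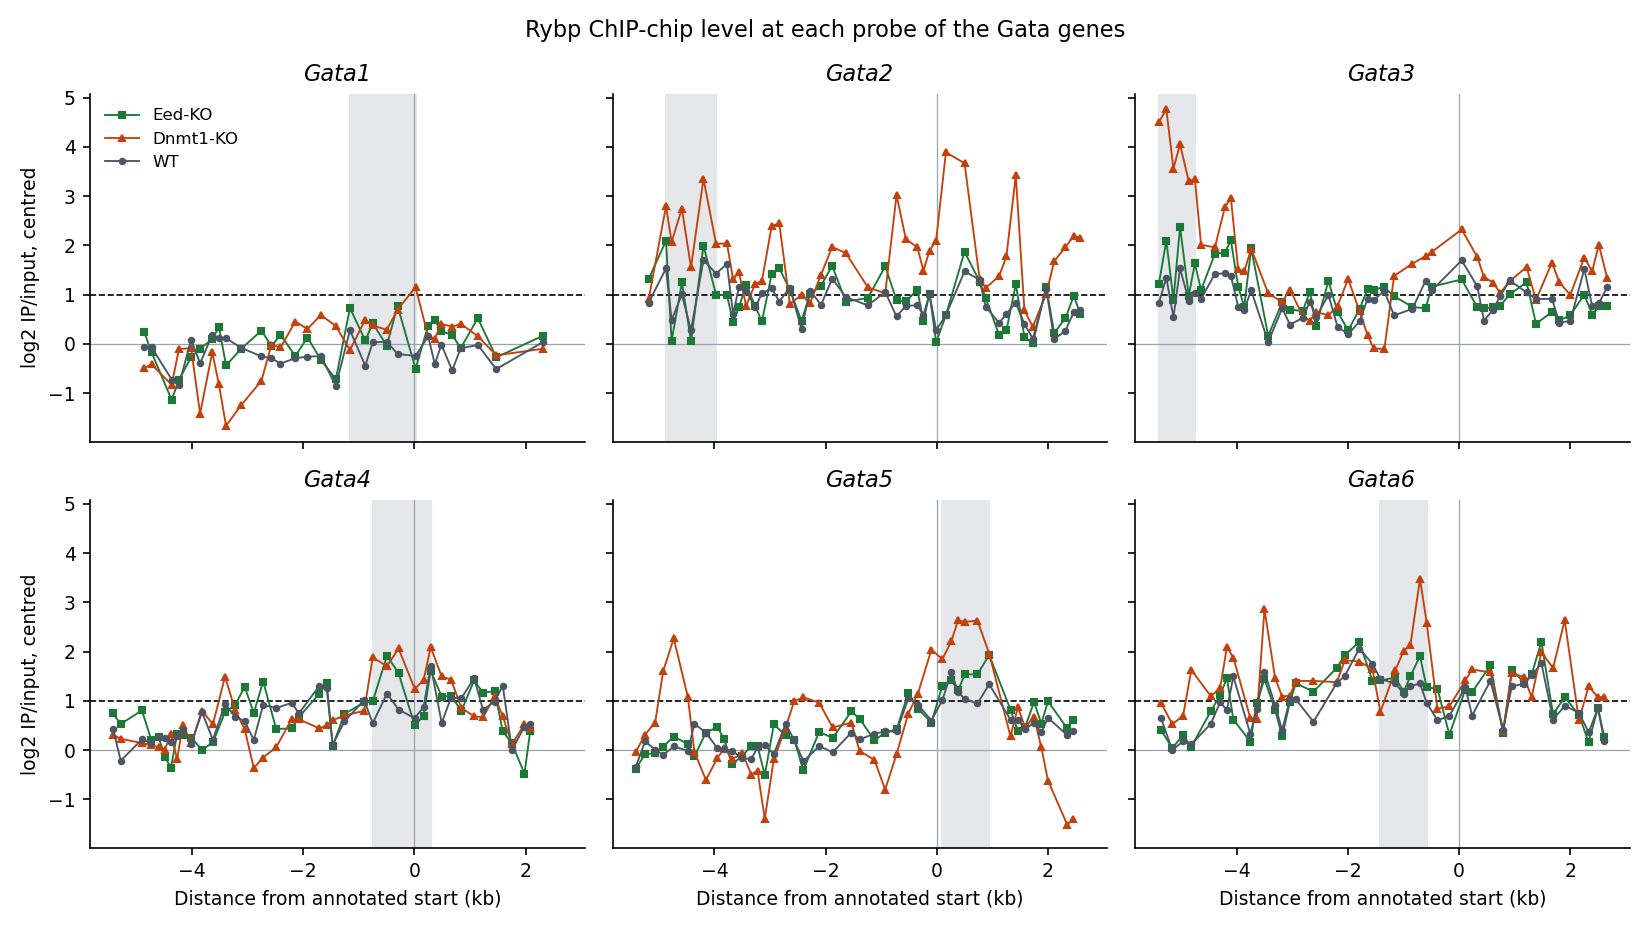
Level at each probe of the 6 Gata genes (log2 IP over input, centred on the array median) against distance from the annotated start in kb, for Eed-KO (squares), Dnmt1-KO (triangles) and WT (circles). Grey bands mark the 6-probe window of each gene and the dashed line the bound level of 1. WT signal covers most of the tiled stretch at Gata2, Gata3 and Gata6, a shorter stretch at Gata4 and Gata5, and none of it at Gata1.

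Signal in the family was first described over the whole tiled stretch, without choosing probes by their level. Around each start, 31 to 45 probes lay within 5500 bp. Neighbouring probes read overlapping DNA fragments and are not replicates. In WT, probes at a level of 0.5 or more numbered 34 of 43 at Gata2, 37 of 45 at Gata3, 34 of 42 at Gata6, 26 of 41 at Gata4, 15 of 43 at Gata5 and 0 of 31 at Gata1. At Gata2, Gata3 and Gata6 such probes lay along most of the stretch, with lower probes between them and at the ends of Gata6. Of all probes within 5500 bp of a start, 12.9% had a level of 0.5 or more in Eed-KO, 28.1% in Dnmt1-KO and 12.4% in WT. A level of at least 1 was reached by 3.3% in Eed-KO, 15.7% in Dnmt1-KO and 2.74% in WT.

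Gata1, the regulator of red cell and megakaryocyte genes, had 0 of 31 probes at a level of at least 1 in Eed-KO, 1 in Dnmt1-KO and 0 in WT. Its mean level over the stretch was 0.00 ± 0.43 in Eed-KO, -0.07 ± 0.64 in Dnmt1-KO and -0.20 ± 0.29 in WT (SD over probes). In WT, 92.4% of the 13564 genes with 20 or more such probes had at least as high a mean. A further 7 probes assigned to Gata1 lie 16602 to 18506 bp from its start and also carry the name of its neighbour Hdac6. Their median level was -0.03 in Eed-KO, 0.40 in Dnmt1-KO and 0.01 in WT, so the neighbourhood of Gata1 was without a WT signal too.

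Gata2, the factor of blood stem and progenitor cells, had 18 of 43 probes at a level of at least 1 in Eed-KO, 36 in Dnmt1-KO and 17 in WT. Its mean over the stretch was 0.89 ± 0.54 in Eed-KO, 1.81 ± 0.84 in Dnmt1-KO and 0.84 ± 0.41 in WT. These means ranked 81st, 11th and 62nd of 13564 genes in the same order of genotypes. Signal was present at both starts of the gene. Within 1000 bp of the distal start the mean was 1.11 ± 0.82 in Eed-KO, 2.21 ± 0.83 in Dnmt1-KO and 1.04 ± 0.54 in WT (7 probes). Within 1000 bp of the proximal start it was 0.97 ± 0.51 in Eed-KO, 2.15 ± 0.98 in Dnmt1-KO and 0.83 ± 0.35 in WT (11 probes). The 15 probes between them averaged 0.98 ± 0.37 in Eed-KO, 1.46 ± 0.56 in Dnmt1-KO and 0.97 ± 0.32 in WT. The domain thus ran through both starts, and the 3 WT means differed by less than the scatter between probes. The 10 probes further downstream averaged 0.53 ± 0.45 in Eed-KO, 1.66 ± 0.88 in Dnmt1-KO and 0.52 ± 0.32 in WT.

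Gata3, the T cell factor that also marks trophoblast, had 20 of 45 probes at a level of at least 1 in Eed-KO, 33 in Dnmt1-KO and 16 in WT. Its mean was 1.01 ± 0.50 in Eed-KO, 1.66 ± 1.12 in Dnmt1-KO and 0.89 ± 0.38 in WT, ranking 37th, 27th and 41st. Distances are from the start in the scanner files, and the probe at -839 bp there falls at -37 bp from the RefSeq start. The signal was uneven along the stretch, which is divided here at points chosen after seeing the values. From 1200 bp upstream of the start onwards, the 19 probes averaged 0.81 ± 0.25 in Eed-KO, 1.51 ± 0.37 in Dnmt1-KO and 0.95 ± 0.35 in WT. The 13 probes between 3700 and 1200 bp upstream formed a dip, with means of 0.78 ± 0.36 in Eed-KO, 0.62 ± 0.43 in Dnmt1-KO and 0.61 ± 0.32 in WT. Beyond 4700 bp upstream, the last 6 probes before the tiling ended averaged 1.53 ± 0.61 in Eed-KO, 3.92 ± 0.62 in Dnmt1-KO and 1.03 ± 0.36 in WT. The tallest Dnmt1-KO signal of the family was therefore at the outer edge of the tiled stretch and not at the start, and how far it runs beyond that edge was not measured.

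Gata6, a driver of primitive endoderm, had the highest WT mean of the family. It had 24 of 42 probes at a level of at least 1 in Eed-KO, 32 in Dnmt1-KO and 19 in WT. The mean was 1.06 ± 0.59 in Eed-KO, 1.46 ± 0.66 in Dnmt1-KO and 0.96 ± 0.50 in WT, ranking 26th, 67th and 16th of 13564 genes. Between 2500 and 500 bp upstream of the start its 10 probes averaged 1.60 ± 0.32 in Eed-KO, 1.93 ± 0.72 in Dnmt1-KO and 1.42 ± 0.31 in WT. In WT, 0.0593% of 13492 genes had as high a mean in that interval. Within 500 bp of the start itself the means were lower, at 0.99 ± 0.45 in Eed-KO, 1.20 ± 0.39 in Dnmt1-KO and 0.82 ± 0.31 in WT (4 probes).

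Gata4, the heart and endoderm factor, had 12 of 41 probes at a level of at least 1 in Eed-KO, 10 in Dnmt1-KO and 9 in WT. Its mean was 0.70 ± 0.55 in Eed-KO, 0.68 ± 0.62 in Dnmt1-KO and 0.67 ± 0.44 in WT. The Eed-KO mean ranked 232nd, the Dnmt1-KO mean 1389th and the WT mean 202nd of 13564. Its longest WT run of probes at 0.5 or more, 15 probes, reached from 1260 bp upstream to 1589 bp downstream of the start. The 26 further probes assigned to Gata4 lie 46286 to 51611 bp away, mostly at its neighbour Neil2, with medians of -0.17 in Eed-KO, -0.13 in Dnmt1-KO and -0.16 in WT. The signal at Gata4 was therefore not shared by those distant probes.

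Gata5, expressed in heart and gut, had fewer probes at a level of at least 1 than any member except Gata1 in Eed-KO and WT. In Dnmt1-KO, Gata4 had fewer, with 10 of 41. Gata5 had 7 of 43 such probes in Eed-KO, 12 in Dnmt1-KO and 6 in WT. Its longest WT run at 0.5 or more spanned 11 probes, from 511 bp upstream to 1459 bp downstream. More than 2500 bp upstream, its 18 probes averaged 0.07 ± 0.28 in Eed-KO, 0.21 ± 0.86 in Dnmt1-KO and 0.07 ± 0.23 in WT. In the same interval Gata2 averaged 1.04 ± 0.40 in WT and Gata3 0.89 ± 0.40, where the median gene had -0.12. Within 500 bp of the start, Gata5 averaged 1.07 ± 0.36 in Eed-KO, 1.98 ± 0.55 in Dnmt1-KO and 1.06 ± 0.36 in WT (5 probes).

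The members also related differently to base composition, given here as a description across probes that share libraries and fragments. Over all probes near starts, the WT level rose with probe GC content (r = 0.30). Within Gata2 the correlation in WT was -0.50 (43 probes), within Gata3 -0.33 (45) and within Gata6 -0.37 (42), whereas within Gata4 it was 0.09 (41) and within Gata5 0.47 (43). At Gata2, Gata3 and Gata6 the WT signal was thus not highest on the probes richest in GC.

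To compare the members with all promoters, each promoter was given the level of its window, the run of 6 neighbouring probes within 3000 bp whose mean over the 3 genotypes was highest. This choice picks high probes in every gene, so the level is to be read against other promoters. A promoter was called bound at a window level of at least 1. In all, 5 of the 6 Gata promoters were bound in Eed-KO, 5 in Dnmt1-KO and 4 in WT. Of all 16062 promoters, 5.94% were bound in Eed-KO, 47.4% in Dnmt1-KO and 5.3% in WT. Gata1 was unbound in every genotype, and Gata4 was just under the bound level in WT. The calls depended on the processing, as did the share of all promoters bound, given in brackets. In WT, 1 was bound after normexp background correction (2.79%). Over the probes within 1 kb of the start 2 were bound (1.49%), and over all probes of the gene 0 (0.0582%). In Eed-KO, 3 were bound within 1 kb of the start (1.74%) and 2 over all probes (0.227%). In Dnmt1-KO, 3 were bound over all probes (2.63%). With the GC trend removed and the arrays set to 1 spread, 3 were bound in Dnmt1-KO (9.47%). The order of the WT levels was Gata6, Gata5, Gata2, Gata3, Gata4 and Gata1, and only the step from Gata4 to Gata1 was larger than the SD over probes.

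**Figure D2:**
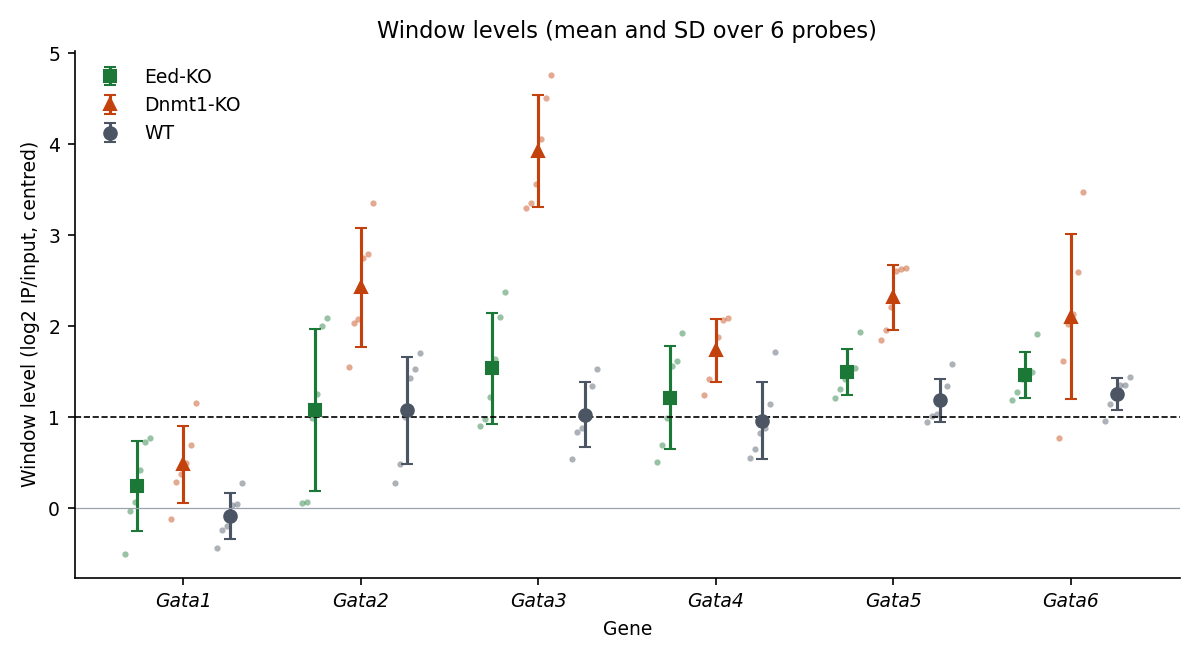
Window level of each Gata promoter (log2 IP over input, centred) in Eed-KO, Dnmt1-KO and WT. Large symbols and bars are the mean and SD over the 6 probes shown as small points, and the dashed line is the bound level of 1. Gata1 lies below the line in all 3 genotypes, and Gata3 in Dnmt1-KO, at 3.92, is the highest.

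Among the blood factors, Gata1 had a window level of 0.24 ± 0.49 in Eed-KO, 0.48 ± 0.43 in Dnmt1-KO and -0.09 ± 0.26 in WT (SD over 6 probes). This window spans chromosome X from 7124731 to 7125964, from 1160 bp upstream to 20 bp downstream of the start. Gata2 had 1.08 ± 0.89 in Eed-KO, 2.43 ± 0.65 in Dnmt1-KO and 1.07 ± 0.59 in WT, on chromosome 6 from 88159417 to 88160369. The Gata2 window lies at the distal start, and by sequence its probes at -4869 and -4768 bp fall at -115 and -14 bp from that start. Gata3 had 1.53 ± 0.61 in Eed-KO, 3.92 ± 0.62 in Dnmt1-KO and 1.03 ± 0.36 in WT, on chromosome 2 from 9800356 to 9801053. This is the edge window 5398 to 4751 bp upstream.

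Among the heart and endoderm factors, Gata4 had a window level of 1.22 ± 0.57 in Eed-KO, 1.74 ± 0.35 in Dnmt1-KO and 0.96 ± 0.42 in WT, on chromosome 14 from 62199050 to 62200143, across the start. Gata5 had 1.49 ± 0.25 in Eed-KO, 2.32 ± 0.36 in Dnmt1-KO and 1.18 ± 0.24 in WT, on chromosome 2 from 180263114 to 180264003, 101 to 943 bp inside the gene. Gata6, on chromosome 18, had 1.46 ± 0.25 in Eed-KO, 2.10 ± 0.91 in Dnmt1-KO and 1.26 ± 0.18 in WT, 1414 to 582 bp upstream of its start. All but Gata1 were thus at 0.96 or more in each genotype. In WT, 1.79% of promoters had as high a window level as Gata6, 2.48% as Gata5, 3.90% as Gata2, 4.69% as Gata3, 6.21% as Gata4 and 89.5% as Gata1.

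The Eed-KO arrays ask whether Rybp stays at these promoters without a core subunit of Polycomb repressive complex 2. None of the Gata promoters lost its signal in Eed-KO, and all 6 differences from WT were at or above 0. None was called different, a call being a difference of at least 1 in size at a promoter bound in either genotype. Over all promoters 0.00623% were called higher and 0.0% lower in Eed-KO. The median difference over the 6 was 0.28, against -0.04 over all 16062 promoters. Over the 1153 promoters bound in Eed-KO or WT the median was 0.10 and the upper quartile 0.25, with 749 above 0. That set leaves out Gata1, which is among the 6 but was bound in neither genotype. The median over the 6 was 0.10 over all probes of the genes. With the GC trend removed and the arrays set to 1 spread it was -0.01.

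Gata3 had the largest Eed-KO minus WT difference of the family, 0.51 ± 0.11 (standard error, SE, over 6 probes, which measures scatter between probes and not between cultures). All 6 of its window probes were higher in Eed-KO, and it ranked 69th of 16062. Within 1000 bp of the start, however, Gata3 averaged 0.88 in Eed-KO and 1.04 in WT, a difference of -0.16. The higher Eed-KO level of Gata3 was thus confined to its upstream side in these data. Over the 7 probes between 4700 and 3700 bp upstream it was 1.54 ± 0.52 in Eed-KO and 1.1 ± 0.32 in WT.

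Gata1 differed by 0.33 ± 0.18 between Eed-KO and WT, with 4 of 6 probes higher. Gata5 differed by 0.31 ± 0.13, with 5 of 6 probes higher, and Gata6 by 0.20 ± 0.09, also with 5 of 6. Gata4 differed by 0.25 ± 0.18 with 3 of 6 probes higher, and Gata2 by 0.00 ± 0.17 with 3 of 6. The differences of Gata1, Gata2 and Gata4 were therefore under 2 SE of the probe scatter. Over the whole tiled stretch the Eed-KO minus WT mean was between 0.03 ± 0.07 at Gata4 and 0.20 ± 0.06 at Gata1, against a median of -0.01 over 13564 genes. At Gata1 both genotypes stayed near or below the array median, so this value is no binding call. The sign of the Eed-KO difference turned under at least 1 alternative processing at Gata2, Gata3, Gata4 and Gata6 and stayed above 0 at Gata1 and Gata5.

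**Figure D3:**
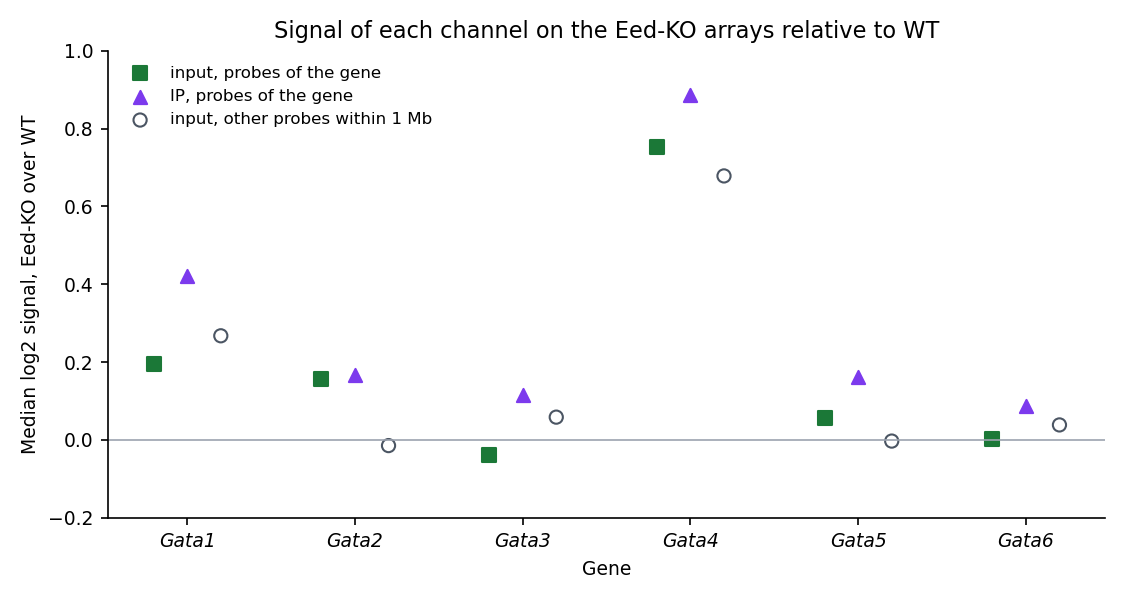
Median log2 signal of the Eed-KO arrays over the WT arrays, for the input channel at the probes of each Gata gene (squares), the IP channel at the same probes (triangles) and the input channel at other probes within 1 Mb (open circles). Gata4 stands above the rest in all 3, at 0.75, 0.89 and 0.68.

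The Gata4 region differed in its input channel. On the Eed-KO array, the input signal of the 41 Gata4 probes was higher than in WT by a median of 0.75 on the log2 scale, with 39 of 41 probes above WT. The IP signal of the same probes was higher by 0.89, and the 572 other probes within 1 Mb had a median of 0.68 for input. Since IP and input moved together, the level of those flanking probes differed by only 0.03. Medians for input in Eed-KO over WT at the other 5 genes were between -0.04 at Gata3 and 0.20 at Gata1. The part of the input difference in the Gata4 values was not tested. On the Dnmt1-KO arrays, input medians over WT lay between 0.25 at Gata1 and 1.78 at Gata6. The SD of that log2 ratio over all probes was 2.00 on design 1 and 1.95 on design 2, against 0.33 and 0.38 for Eed-KO.

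The Dnmt1-KO arrays ask whether Rybp occupancy differs in cells without maintenance DNA methylation. As measured, every Gata promoter had a level above that of WT. Gata2, Gata3 and Gata5 were called higher and none was called lower, and of these 3 only Gata3 kept its sign under every alternative run. Over all promoters, 25.6% were called higher and 0.0187% lower. The median difference over the 6 was 0.99, against 0.62 over all promoters. Over the 7638 promoters bound in Dnmt1-KO or WT the median was 1.04, and 7589 of them were above 0. Gata1, bound in neither genotype, is among the 6 but not in the bound set, so these medians are of unlike sets. Of the bound members, Gata2 (1.35), Gata3 (2.90) and Gata5 (1.13) were above 1.04, and Gata4 (0.77) and Gata6 (0.84) below it.

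Gata3 had the largest difference of the family. Its 6 window probes, in order from the outermost inwards, had levels of 4.51, 4.76, 3.56, 4.06, 3.30 and 3.36 in Dnmt1-KO. The same probes had 0.84, 1.34, 0.54, 1.53, 0.88 and 1.03 in WT. These probes were picked with the Dnmt1-KO array included in the choice. The difference was 2.90 ± 0.23 (SE over 6 probes), the 4th highest of 16062, and the Dnmt1-KO level itself was the 9th highest. Where windows were picked on the other 2 genotypes, the difference of Gata3 was 1.71, and 1.59% of promoters had at least as large a difference. Within 1000 bp of the start Gata3 averaged 1.59 in Dnmt1-KO and 1.04 in WT, a difference of 0.54, where 39.3% of promoters had at least as large a difference. The 7 probes between 4700 and 3700 bp upstream averaged 2.09 ± 0.58 in Dnmt1-KO and 1.1 ± 0.32 in WT. The Gata3 difference was thus largest in the upstream edge window and smaller, but present, at the probes next to it and at the start. Probes of that window held 5.28 CpG per 100 bases, against 2.88 over the 45 probes of the gene.

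Gata2 differed by 1.35 ± 0.17 between Dnmt1-KO and WT, with 6 of 6 window probes higher, and by 0.56 where windows were picked without the Dnmt1-KO arrays. Over its whole stretch the difference was 0.96 ± 0.13, with 38 of 43 probes higher, and 0.265% of genes had as large a difference. Gata3 differed by 0.78 ± 0.15 over its stretch, with 38 of 45 probes higher, and 1.51% of genes had as large a difference. Gata6 differed by 0.50 ± 0.09 over its stretch, with 35 of 42 probes higher. Gata5 differed by 1.13 ± 0.20 in its window and by 0.14 ± 0.14 over its stretch. Gata4 differed by 0.77 ± 0.17 in its window and by 0.02 ± 0.08 over its stretch, where the median gene differed by 0.08. Windows picked without the Dnmt1-KO arrays gave 0.09 at Gata4 and 1.13 at Gata5. Over its probes within 1 kb of the start Gata4 differed by 0.55, and 38.7% of promoters had at least as large a difference. The Dnmt1-KO difference was thus spread along Gata2, largest far upstream at Gata3 and largest near the start at Gata4. At Gata5 it went both ways along the stretch, with 8 of 43 probes higher by at least 1 and 5 lower by at least 1. The Gata5 probe 4730 bp upstream, for example, had 0.28 in Eed-KO, 2.27 in Dnmt1-KO and 0.08 in WT. Gata6 differed by 0.84 ± 0.40 in its window and Gata1 by 0.57 ± 0.26, each with 5 of 6 probes higher.

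**Figure D4:**
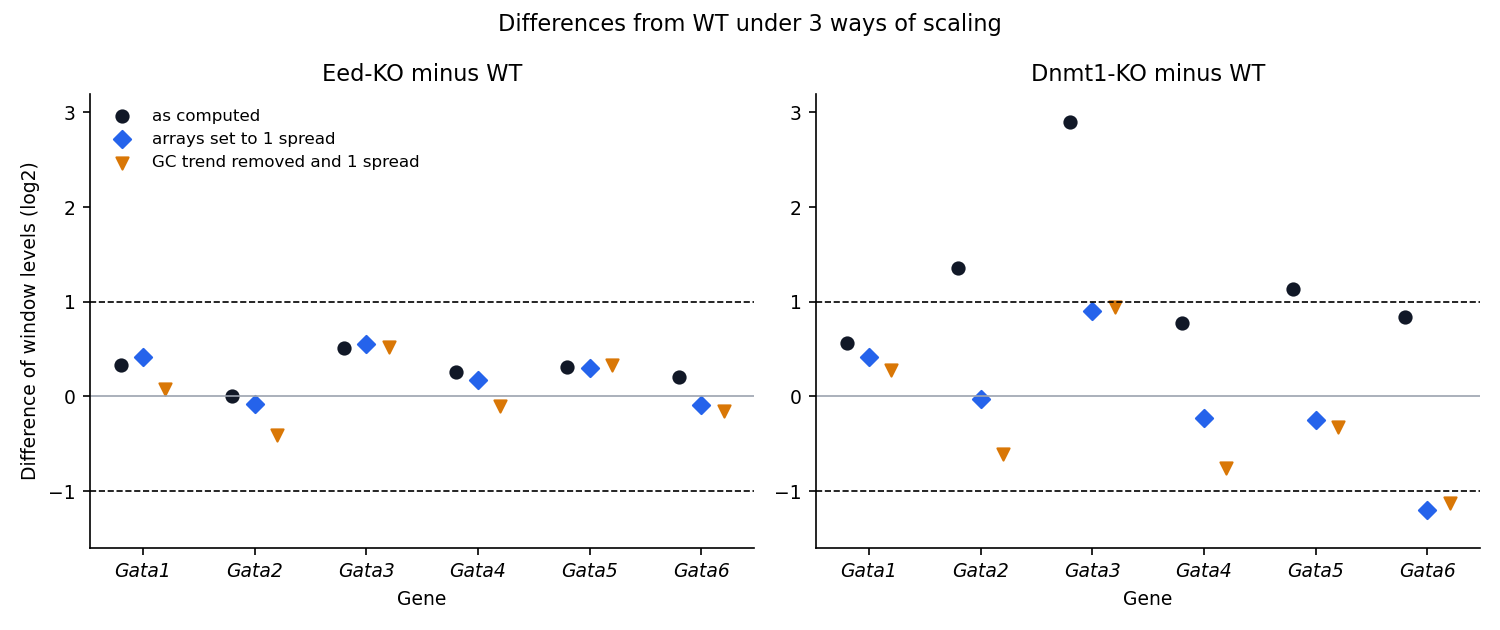
Difference of window levels from WT (log2) at each Gata promoter, Eed-KO minus WT on the left and Dnmt1-KO minus WT on the right, as computed (circles), with the arrays of a design set to 1 spread (diamonds) and after removal of the GC trend too (triangles). Windows were chosen anew under each setting and dashed lines mark differences of 1 in size. On the right, Gata3 stays near 0.9 under both scalings, while Gata2, Gata4, Gata5 and Gata6 fall below 0.

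The sign of most Dnmt1-KO differences depended on how the wider spread of these arrays was treated. Setting the arrays of a design to 1 spread moved the median Dnmt1-KO minus WT difference of all promoters to 0.06. Windows were chosen anew under each setting, so the values can also reflect a change of probes. Gata3 then differed by 0.91 and Gata1 by 0.41. Gata2 differed by -0.03, Gata4 by -0.22, Gata5 by -0.24 and Gata6 by -1.20, the last at 0.93 in Dnmt1-KO and 2.13 in WT. After removal of the GC trend too, Gata3 differed by 0.94, Gata1 by 0.28, Gata2 by -0.60, Gata5 by -0.33, Gata4 by -0.76 and Gata6 by -1.13. At Gata6, picking windows without the Dnmt1-KO arrays gave -0.07 with no such scaling. Gata3 was thus above WT, and above the median of all promoters, under each of these scalings, and only Gata1 shared that. Ranks among the promoters of the same array design, which the spread of an array does not change, were taken for the windows as first chosen. Of 8112 promoters on the first design, Gata3 stood at 7th in Dnmt1-KO and 397th in WT, Gata5 at 457th in Dnmt1-KO and 217th in WT, and Gata2 at 362nd in Dnmt1-KO and 335th in WT. Of 7950 on the second, Gata6 stood at 600th in Dnmt1-KO and 129th in WT, Gata4 at 1240th in Dnmt1-KO and 481st in WT, and Gata1 at 5603rd in Dnmt1-KO and 7133rd in WT. In these windows Gata3 and Gata1 thus ranked higher in Dnmt1-KO than in WT and the other 4 lower, Gata2 by little. Over the whole stretch, with both designs ranked together, Gata2 ranked higher in Dnmt1-KO, at 11th against 62nd in WT of 13564 genes. The other members kept the direction they had in the windows.

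The promoters most like each member were found by the Euclidean distance over the 3 window levels, which counts 1 value per genotype. Gata6 was nearest to Hand2, a heart and limb factor, at a distance of 0.08, with levels of 1.51 in Eed-KO, 2.12 in Dnmt1-KO and 1.32 in WT at Hand2. Gata5 was nearest to Fgf8, a growth factor gene of the early embryo, at 0.016. Gata4 was nearest to Chrm3 at 0.025, Gata2 to Prps1 at 0.026 and Gata1 to Prr14l at 0.017. Gata3 had no such close match, its nearest being the homeobox gene En2 at 0.25. Within the family Gata5 and Gata6 were the closest pair, at 0.23, with 38 other promoters nearer to Gata5 than Gata6.

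Genes that work with or under the GATA factors were counted from 4 lists, to be read against the 5.94% of all promoters bound in Eed-KO, 47.4% in Dnmt1-KO and 5.3% in WT. Among cofactors and partner factors, 15 of 16 had a window, of which 5 were bound in Eed-KO, 11 in Dnmt1-KO and 3 in WT. Hand2 and Nkx2-5, a heart homeobox gene, led the WT levels. Nkx2-5 had 1.56 ± 0.45 in Eed-KO, 2.10 ± 0.42 in Dnmt1-KO and 1.34 ± 0.11 in WT. Fli1, an Ets factor of blood vessels, had 1.25 ± 0.40 in Eed-KO and 0.83 ± 0.44 in WT, the largest Eed-KO difference of the bound partners at 0.42 ± 0.13. Tal1, the blood factor that joins Gata1 in a complex, had 2.85 ± 0.66 in Dnmt1-KO and 0.98 ± 0.34 in WT, a difference of 1.88 ± 0.22. That of Tal1 was called higher, though below 0 under 2 of the alternatives, and 4 of 15 partners were called higher in Dnmt1-KO in all, near the 25.6% of all promoters.

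Of heart and endoderm targets of Gata4 to Gata6, all 18 had a window, and 6 were bound in Eed-KO, 9 in Dnmt1-KO and 6 in WT. The Dnmt1-KO count is near the share of all promoters. All 6 bound in WT are known from endoderm, whereas of the 7 genes of heart muscle (Nppa, Nppb, Myh6, Myh7, Tnnt2, Tnni3 and Actc1) 0 were bound in Eed-KO, 1 in Dnmt1-KO and 0 in WT. Their WT levels lay between -0.26 and 0.68, and the liver and yolk sac genes Afp, Ttr and Hnf4a were unbound in WT as well. This division of the list was made after seeing the values. The bound genes included Sox17, an endoderm factor, with 1.41 ± 0.34 in Eed-KO, 2.40 ± 0.68 in Dnmt1-KO and 1.35 ± 0.33 in WT. Sox7, its relative in the same endoderm, had 1.47 ± 0.49 in Eed-KO, 1.69 ± 0.74 in Dnmt1-KO and 1.24 ± 0.43 in WT. Pdgfra, a receptor that marks primitive endoderm, had 1.58 ± 0.85 in Eed-KO, 2.72 ± 1.14 in Dnmt1-KO and 1.06 ± 0.52 in WT. Foxa2, a pioneer factor of endoderm, had 1.16 ± 0.43 in Eed-KO, 2.94 ± 0.66 in Dnmt1-KO and 1.09 ± 0.42 in WT. Dab2, an endocytic adaptor of extraembryonic endoderm, had 0.91 ± 0.54 in Eed-KO and 1.04 ± 0.54 in WT, and was the only 1 of the 6 bound in WT whose Eed-KO level was under 1.

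Of blood-lineage targets of Gata1 to Gata3, 13 of 16 had a window, and 0 were bound in Eed-KO, 4 in Dnmt1-KO and 0 in WT. Klf1, a red cell factor, had 0.24 ± 0.21 in Eed-KO, 2.07 ± 0.38 in Dnmt1-KO and 0.40 ± 0.22 in WT. Epor, the erythropoietin receptor gene, had 0.82 ± 0.39 in Eed-KO, 1.08 ± 0.60 in Dnmt1-KO and 0.57 ± 0.41 in WT. The list median was 0.23 in Eed-KO, 0.53 in Dnmt1-KO and 0.21 in WT, where all promoters had 0.22, 0.95 and 0.28. The heart and endoderm list had 0.50, 1.18 and 0.59 in the same order of genotypes. Of the other genes with a GATA-type zinc finger, such as those of the Mta and Gatad families, 5 of 9 had a window, with 0 bound in Eed-KO, 3 in Dnmt1-KO and 0 in WT.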

How the data were processed

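Scanner output of 6 Agilent 2-colour promoter arrays was used, with precipitated DNA in Cy5 and input in Cy3 per the labels. The processed intensity of each spot was background-subtracted, spatially detrended and dye-normalised by Feature Extraction, per the file headers. The submitters' processing notes name version 9.5.3.1. The value table deposited by the authors is in log10 units, as Cy5 over Cy3, and for 99.0% or more of the probes of each array its values differ from the scanner log10 ratios by 1 constant per array, within 0.001. Its column medians on the first design were -0.0317 in Eed-KO, -0.121 in Dnmt1-KO and -0.025 in WT, and on the second -0.0316, -0.114 and -0.027. How those constants were chosen is not stated.

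From the deposited intensities, log2 of red over green processed signal was centred by subtracting each array's median over non-control probes. Flagged outlier spots were left out. Gene assignments and distances are those annotated in the Dnmt1-KO files, and symbols were updated through RefSeq accessions (GRCm38.p6, 17099 of 17797 matched). Promoters with the same window count once. Window, bound level and difference are defined where first used and are rules of size. The window search was tested on simulated data with independent probe noise of equal spread in every genotype. That test does not cover the wider spread of the Dnmt1-KO arrays. Alternatives were normexp background correction (limma 3.58.1, offset 50), the authors' table, centring on the mode, a common spread, a lowess trend on GC content (span 0.3), other bound levels and other sets of probes. Tables were made with Python 3.11.15, numpy 2.4.6, pandas 2.3.3 and statsmodels 0.14.6. The members, gene lists and rules were chosen with earlier results of these data known, and means over whole stretches and the division of Gata2 and Gata3 were added after seeing the values. The text names all 6 members, their nearest promoters, and from each list genes with the highest WT level or the most extreme differences among those bound. Not every gene chosen by this rule is named.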

Additional observations from a re-analysis of the deposited data

Results flagged for a closer look

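The input channel, which enters no comparison of its own, differed between Eed-KO and WT at Gata4. Its probes had a median log2 input signal of 0.75 in Eed-KO over WT, and the probes flanking it within 1 Mb had 0.68. The cause was not tested.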

How the results depend on the processing

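The processing alternatives were run on the counts of bound Gata promoters, on both median differences and on each named promoter. Brackets give the share of all promoters bound under the same setting. Promoters bound in Eed-KO numbered 2 over all probes of the gene (0.227%) and 3 over probes within 1 kb of the start (1.74%). At a bound level of 3-fold there were 0 (0.728%). Promoters bound in Dnmt1-KO numbered 3 over all probes of the gene (2.63%). They also numbered 3 with the GC trend removed and the arrays set to 1 spread (9.47%). Promoters bound in WT numbered 1 after normexp (2.79%) and 0 over all probes of the gene (0.0582%). Within 1 kb of the start they numbered 2 (1.49%), and at 3-fold 0 (0.299%). The median Dnmt1-KO minus WT difference was -0.13 with the arrays set to 1 spread, -0.46 with the GC trend removed as well and 0.33 over all probes of the gene. The median Eed-KO minus WT difference ranged from -0.01, with the GC trend removed at 1 spread, to 0.35 in runs of 4 probes. These medians and the remaining counts, 59 values in all, stayed within 1.5 times the count or, for medians, within the probe spread. Called Dnmt1-KO differences that turned sign at 1 spread were Gata2 (-0.0314), Gata5 (-0.24) and Sox17 (-0.42). With the GC trend removed as well, Gata2 was at -0.60, Gata5 at -0.33, Sox17 at -0.50 and Tal1 at -0.75. Tal1 was at -0.32 within 1 kb of its start, and Sox17 at -0.20 over all probes of the gene. Where windows were picked without the Dnmt1-KO arrays, Gata3 differed by 1.71 and Gata6 by -0.07 between Dnmt1-KO and WT. The cause of these turns was not tested. No paired analysis was possible because each probe has 1 array per genotype. Without replicates, spread between cultures and hybridisations is unknown. From 1 to 6 probes of each gene except Gata5 had input not well above background on at least 1 array. The extraction software set that mark with a multiplier of 13 on the Dnmt1-KO arrays and 2.6 on the others, so its cutoff was not the same on all arrays.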
